A study of Mus musculus with 15 samples.

Results

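The 41 genes described here are mitotic spindle and checkpoint genes: proliferation markers, the mitotic cyclins and kinases, the spindle checkpoint, the outer kinetochore, spindle motors, the separase and anaphase-promoting regulators, and the cytokinesis factors. They were chosen by gene symbol, and all 41 were found among the 36144 genes of the count table. Bulk RNA-seq was made from mouse stomach, with 3 tumors of the antrum, 3 of the greater curvature of the cardia, 3 of the lesser curvature of the cardia, 3 of the corpus and 3 samples of normal stomach tissue. All 15 libraries, the normal tissue included, came from C57BL/6 mice that carried Pou2f3-CreERT, floxed alleles of Rb1 (Rb1fl/fl) and Trp53 (Trp53fl/fl), and the LSL-MycT58A allele. The labels give an age of 7 to 8 weeks, intraperitoneal tamoxifen at 50 mg/kg for one day, and a time of 5 weeks after it. Tamoxifen activates the Cre only in cells that express Pou2f3, a factor of tuft cells, where it removes the floxed Rb1 and Trp53 segments and switches on a stabilised Myc. The labels do not say which stomach region the normal tissue came from. The titles number the samples as biological replicates, without saying whether these are separate animals. A p-value here reflects spread among libraries, which may not be the spread among animals.

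Mitosis separates the duplicated chromosomes. Cyclin B with Cdk1 drives entry, Aurora and Polo-like kinases build the spindle, and kinetochores attach chromosomes to microtubules through the Ndc80 complex. The spindle checkpoint (Bub1, Bub1b, Bub3, Mad2l1, Ttk) holds back Cdc20 and the anaphase-promoting complex until all chromosomes are attached. The complex then removes securin (Pttg1) and cyclin B, separase (Espl1) opens cohesin, and the central spindle guides cytokinesis. In dividing cells many of these genes are transcribed late in the cell cycle through CCAAT boxes and the cell cycle genes homology region (CHR). The CHR, not the CCAAT box, is read by the MuvB complex, which works with Foxm1. In normal stomach, division is mostly limited to the progenitor zone of the glands.

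The promoters of members are shown because these genes moved together. RefSeq promoter sequences (GRCm38.p6, 250 bases before to 50 after the annotated start) were matched by symbol for 34 of the 41 members, as 37 promoters. Aurkb, Ccna2, Foxm1, Spc24, Kif20a, Tpx2 and Incenp had no entry. The motifs searched on both strands were CCAAT, the CHR core TTTGAA, the E2F forms TTCGCGC and TTGGCGC, and the E-box CACGTG. In the 5 promoters below, capitals mark CCAAT and TTTGAA, or their reverse complements. Ccnb2, encoding cyclin B2, lies on the minus strand at chr9:70421505-70421804 and holds 3 CCAAT boxes and 2 CHR matches.
Ccnb2: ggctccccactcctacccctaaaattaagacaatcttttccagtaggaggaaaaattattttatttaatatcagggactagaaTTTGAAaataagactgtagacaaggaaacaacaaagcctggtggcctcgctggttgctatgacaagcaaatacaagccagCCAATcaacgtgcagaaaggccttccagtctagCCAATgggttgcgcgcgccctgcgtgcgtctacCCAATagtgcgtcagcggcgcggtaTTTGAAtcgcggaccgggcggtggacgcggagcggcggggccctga
Plk1, encoding Polo-like kinase 1, lies on the plus strand at chr7:122159185-122159484, and Cdc20, encoding the activator of the anaphase-promoting complex, on the minus strand at chr4:118437294-118437593. Both hold 1 CHR match, within 50 bases of the start.
Plk1: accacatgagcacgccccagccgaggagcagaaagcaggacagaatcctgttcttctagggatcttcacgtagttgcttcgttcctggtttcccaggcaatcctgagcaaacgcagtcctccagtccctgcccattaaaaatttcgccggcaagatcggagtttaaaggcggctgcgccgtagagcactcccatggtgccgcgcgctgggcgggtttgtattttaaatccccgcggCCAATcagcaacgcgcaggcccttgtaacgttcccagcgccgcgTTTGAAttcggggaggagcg
Cdc20: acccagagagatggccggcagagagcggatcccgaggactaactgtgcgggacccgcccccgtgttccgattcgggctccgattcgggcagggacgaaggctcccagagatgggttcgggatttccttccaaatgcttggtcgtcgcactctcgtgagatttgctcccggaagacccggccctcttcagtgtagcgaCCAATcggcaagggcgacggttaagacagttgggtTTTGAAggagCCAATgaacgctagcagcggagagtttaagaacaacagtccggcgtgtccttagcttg
Bub1b, encoding the checkpoint protein BubR1, is on the plus strand at chr2:118597961-118598260. Ccnb1, encoding cyclin B1, is on the minus strand at chr13:100786437-100786736 and lacks TTTGAA. Its change was the largest of the 41, and a link between motif matches and change was not tested.
Bub1b: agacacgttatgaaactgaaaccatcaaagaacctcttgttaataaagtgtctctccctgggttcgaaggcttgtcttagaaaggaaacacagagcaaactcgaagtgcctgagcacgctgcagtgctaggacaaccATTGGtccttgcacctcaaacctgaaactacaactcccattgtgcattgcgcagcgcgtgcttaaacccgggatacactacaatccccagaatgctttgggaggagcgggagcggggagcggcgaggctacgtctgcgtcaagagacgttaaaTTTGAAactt
Ccnb1: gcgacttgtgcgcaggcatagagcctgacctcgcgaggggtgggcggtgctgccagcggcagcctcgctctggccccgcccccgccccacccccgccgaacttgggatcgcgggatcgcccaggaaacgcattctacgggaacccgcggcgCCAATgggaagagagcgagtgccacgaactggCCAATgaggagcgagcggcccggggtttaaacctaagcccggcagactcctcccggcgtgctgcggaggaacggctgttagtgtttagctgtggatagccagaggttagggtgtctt

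Among the 37 member promoters, 29 (78.4%) held CCAAT, against 37.4% of all 32851 promoters of the table. The CHR core stood in 29 (78.4%), against 17.9% of all promoters. Both motifs stood in 26 (70.3%), against 6.95% of all. Within 50 bases of the start, a window added during the analysis, the CHR core stood in 26 (70.3%), against 4.94%. E2F matches were found in 5 (13.5%), against 3.89%, and E-boxes in 3 (8.11%), against 7.15%. Bub3, Ect2 and Prc1 entered with overlapping promoter windows, so some of their matches were counted again. By gene, 26 of 34 members (76.5%) held CCAAT, 26 (76.5%) the CHR core, 23 (67.6%) both and 4 (11.8%) an E2F match. The further lists of cell cycle genes described below had 142 promoters. Of these, 54.2% held CCAAT, 32.4% the CHR core, 20.4% both, and 21.1% the CHR core within 50 bases of the start. E2F matches stood in 14.8% of them and E-boxes in 7.75%, so the E2F share of the members was not above that of these lists. In 4 of the 37 promoters, of Ccnb1, Cdca8 and Ect2, matches of different motifs overlapped. A match is a description of letters in the window, and absence says only that these letters are not there. Birc5, Mad2l1, Nuf2, Nusap1 and Pttg1 held neither CCAAT nor TTTGAA. Bub1, Ccnb1 and Cenpe held CCAAT and no TTTGAA, and Anln, Kif2c and Ndc80 held TTTGAA and no CCAAT.

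**Figure D1:**
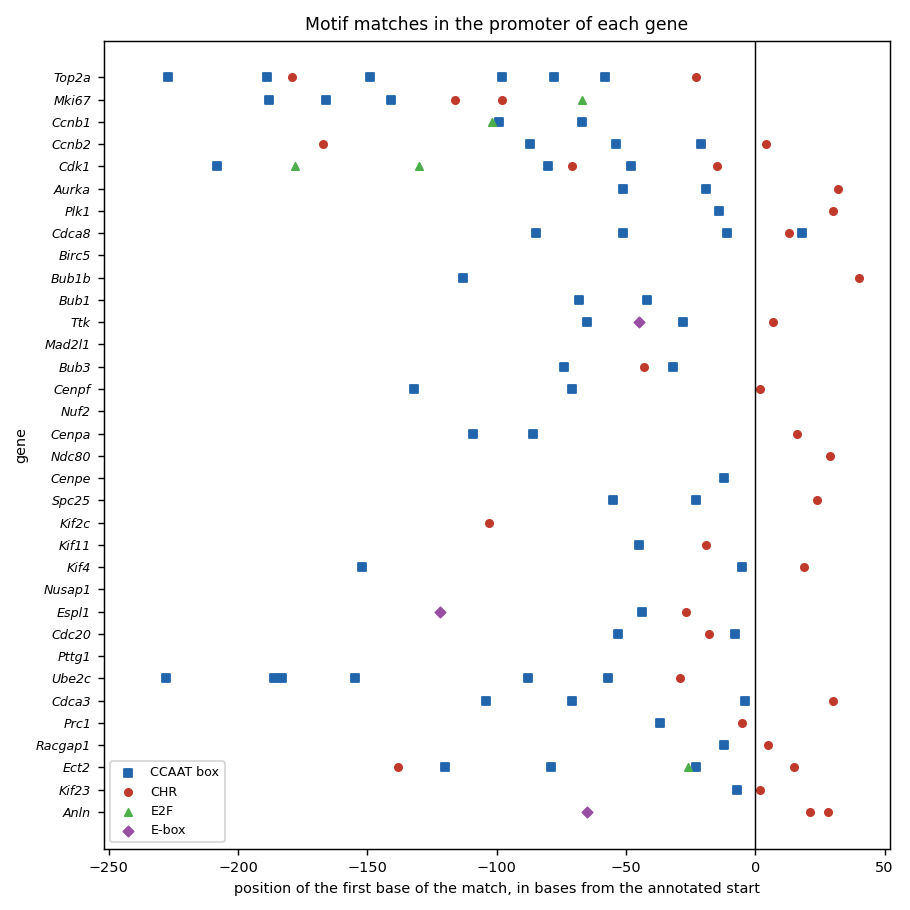
Position of each motif match in 1 promoter per gene for the 34 members with a promoter. The x axis is the distance of the first base of the match from the annotated start, in bases. Squares are CCAAT, circles the CHR core, triangles E2F and diamonds E-box. CHR matches gather near the start, and CCAAT matches mostly lie upstream of them.

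Library totals ran from 7957165 counts (lesser curvature 2) to 21564972 (greater curvature 2). Levels are given as CPM, counts scaled to library size with edgeR's TMM factors. Libraries differed in the cell type markers they held, given here as the summed CPM of each list. Chief cell markers summed to 44302 CPM in greater curvature 2 and 80873 CPM in corpus 1, against 60972 to 135873 CPM in the normals, while the 12 tumors had a median of 2466 CPM. The list did not move as one. Pgc, Chia1 and Gper1 were called lower in tumors and Pga5 was not called. Cym was called higher (log2 change 2.80, edgeR quasi-likelihood test, Benjamini-Hochberg adjusted p = 0.0443). Parietal markers were at 18.3 to 7576 CPM in tumors, highest in corpus 1, against 5187 to 9896 CPM in normals, and pit and neck cell markers at 133 to 89540 CPM, against 101672 to 108967 CPM. Squamous markers were at 391.9, 2001 and 1072 CPM in the 3 lesser curvature tumors and 0.43 to 158 CPM in the other 9, against 2.06, 5784 and 1.68 CPM in normals 1, 2 and 3. Fibroblast markers were at 6787 CPM in greater curvature 2 and 679 to 2019 CPM in the other tumors, against 664 to 992 CPM in normals. Neuroendocrine markers were at 217 to 5339 CPM, against 257 to 1167 CPM, general epithelial markers at 162 to 10632 CPM, against 3799 to 11857 CPM, and endothelial markers at 57.6 to 192 CPM, against 91.4 to 218 CPM. Smooth muscle markers were lower in all 12 tumors, at 193 to 1177 CPM, against 4604 to 6576 CPM in the normals. Myeloid markers summed to 58.8 to 143 CPM in tumors, against 44.2 to 55.3 CPM in normals, with Ly6g at no more than 5 counts in any library. The part of these cell types in the results was not tested, and in bulk tissue fewer cells of a type and less RNA per cell cannot be told apart. Whole-gene counts do not check the floxed deletions. Rb1 was at 23.3 to 47.2 CPM in tumors, against 36.1 to 49.5 CPM in normals, and Trp53 at 24.0 to 70.5 CPM, against 28.1 to 32.4 CPM. Myc was at 95.2 to 765 CPM in tumors, against 39.1 to 98.4 CPM in normals, with a log2 change of 2.13 ± 0.56 (SE, edgeR quasi-likelihood test, Benjamini-Hochberg adjusted p = 0.0158).

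All 41 genes rose in tumors. In the comparison of the 12 tumors (mean of the 4 sites) with the 3 normals, edgeR's quasi-likelihood test called 41 of 41 higher at an adjusted p under 0.05, against 16.2% of the 16224 genes tested, and 0 lower, against 15.7%. The median log2 change of the 41 was 2.26, against -0.04 for all tested genes. Changes ran from 1.20 (Bub3) to 2.86 (Ccnb1), and 37 of the 41 lay within 0.5 of the median. In CPM, all 12 tumors lay above all 3 normals for 41 of 41 members, which 9.58% of the tested genes also showed. The gap was narrow for some: the lowest tumor was 1.03 times the highest normal for Spc25 and 2.74 times for Bub1b, with a median of 1.56. All 41 passed the filter on low counts, and the lowest count of any member in a normal was 52, for Ttk.

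**Figure D2:**
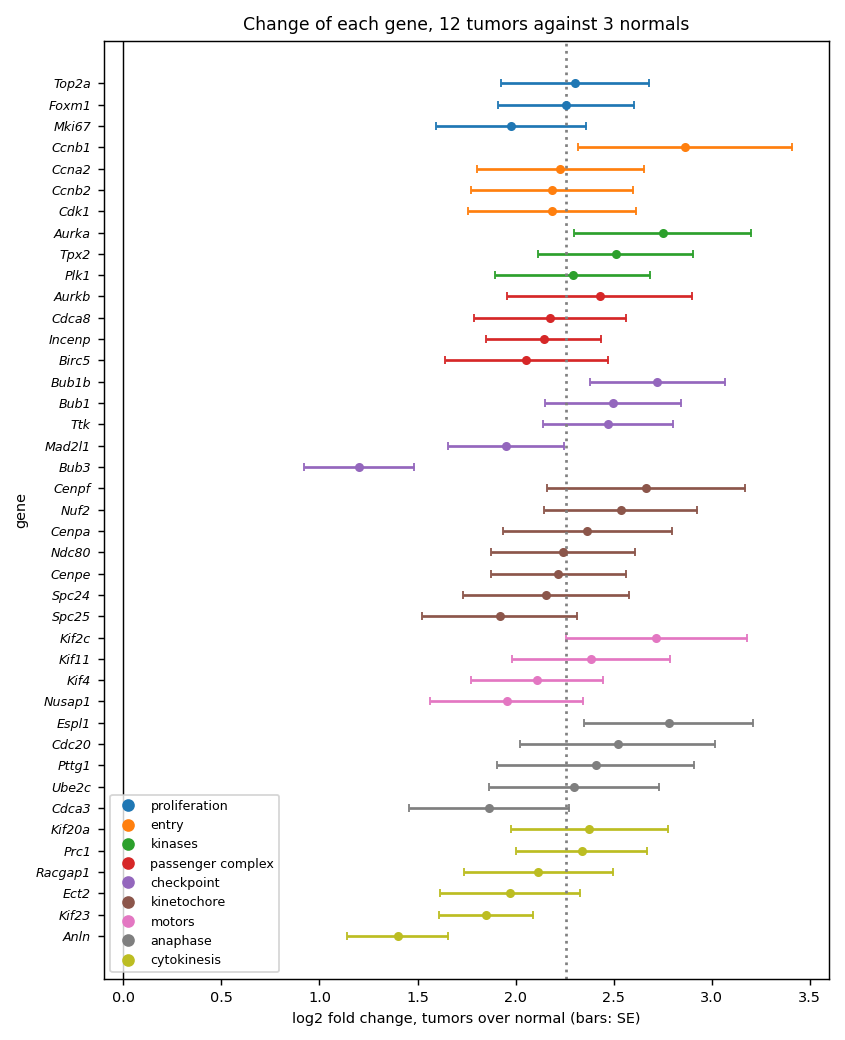
Log2 fold change of each gene, 12 tumors over 3 normals, with a standard error derived from edgeR's F statistic. Colours are the roles of the genes, and the dotted line is the median of the 41, 2.26. Bub3 and Anln lie lowest, at 1.20 and 1.40.

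The proliferation genes moved by 1.98 to 2.30 on the log2 scale. Mki67, whose product coats mitotic chromosomes, was at 196 CPM in the lowest tumor, 422 at the median and 666 in the highest, against 78.3, 167 and 91.0 CPM in the 3 normals. The groups did not overlap, and the lowest tumor (greater curvature 2) was close to normal 2. Its log2 change was 1.98 ± 0.38 (edgeR, SE, adjusted p = 0.0048). Top2a, the topoisomerase that untangles sister chromatids, was at 178, 399.7 and 545 CPM in the lowest, median and highest tumor, against 48.3, 114 and 67.1 CPM in the normals. Its log2 change was 2.30 ± 0.38. Foxm1, a transcription factor of late cell cycle genes, was at 28.1, 55.8 and 73.7 CPM, against 9.33, 15.9 and 8.26 CPM in the normals, and rose by 2.26 ± 0.35 (adjusted p = 0.00213, edgeR). For both genes, too, normal 2 was the highest normal and no tumor fell to it.

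The genes of mitotic entry differed in size among the cyclins. Ccnb1 had 36.8 CPM in the lowest tumor, 121 at the median and 257 in the highest, against 19.4, 23.6 and 9.86 CPM in the normals. Greater curvature 2 was lowest and lesser curvature 1 highest, and the groups did not overlap. The log2 change of Ccnb1 was 2.86 ± 0.54 (edgeR, SE, adjusted p = 0.00449). Ccnb2 changed by 2.186 and Ccna2, cyclin A2, by 2.23. In TPM, which adjusts for transcript length, the ratio of Ccnb1 to Ccnb2 was above all 3 normals in 8 of 12 tumors (1.10 to 2.74, against 0.905 to 1.46). Cdk1, the cyclins' kinase, was at 52.2, 120.0 and 211 CPM in the lowest, median and highest tumor, against 25.6, 38.2 and 20.0 CPM in the normals, a log2 change of 2.185 ± 0.43 (edgeR, adjusted p = 0.00511).

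Aurora and Polo-like kinases and their activator rose by 2.29 to 2.75 on the log2 scale. Aurka, the centrosomal Aurora kinase, was at 20.6, 65.2 and 90.7 CPM in the lowest, median and highest tumor, against 9.04, 11.9 and 5.81 CPM in the normals. Its log2 change was 2.75 ± 0.45 (edgeR, SE, adjusted p = 0.00271). Tpx2, its activator on spindle microtubules, changed by 2.51. Plk1 was at 27.8, 55.6 and 80.3 CPM, against 10.1, 19.1 and 6.42 CPM in the normals, a log2 change of 2.29 ± 0.40. For Aurka and Plk1 greater curvature 2 was the lowest tumor and lesser curvature 3 the highest. In the chromosomal passenger complex, Aurkb, its kinase, was at 24.6, 65.9 and 115 CPM in tumors, against 11.46, 15.4 and 9.25 CPM, a log2 change of 2.43 ± 0.47. Cdca8 (borealin) changed by 2.18, the scaffold Incenp by 2.14 and Birc5 (survivin) by 2.05. Birc5 was at 37.2, 90.02 and 133 CPM in the lowest, median and highest tumor, against 18.1, 29.2 and 13.1 CPM in the normals. In TPM, Birc5 per Aurkb was below all normals in 11 of 12 tumors (1.13 to 2.79, against 2.40 to 3.51). Incenp per Aurkb, with the same denominator, was below them in 10 (0.711 to 1.46, against 1.22 to 1.85). Aurka per Aurkb was above all normals in 7 tumors and below them in 3. Aurka per Tpx2 was above them in 1 and below them in 0.

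Of the spindle checkpoint genes, Bub1, Bub1b and Ttk rose more and Bub3 least. Bub1b had 49.01 CPM in the lowest tumor, 94.1 at the median and 147 in the highest, against 12.6, 17.9 and 11.01 CPM in the normals. Its log2 change was 2.72 ± 0.34 and its adjusted p the smallest of the 41 (edgeR, 0.000913). Bub1, the kinase of the outer kinetochore, was at 20.0, 44.3 and 59.1 CPM, against 5.95, 10.6 and 6.35 CPM, a log2 change of 2.497 ± 0.35. Ttk (Mps1), the kinase that starts the signal, was at 13.7, 25.7 and 38.8 CPM, against 3.82, 5.76 and 4.66 CPM, a log2 change of 2.47 ± 0.33. In none of these 3 genes did a tumor fall to the level of a normal. Mad2l1, the Cdc20-binding protein, was at 32.4, 61.4 and 91.5 CPM, against 16.8, 18.1 and 13.1 CPM, a log2 change of 1.95 ± 0.30. Bub3, the adaptor that brings Bub1 and BubR1 to kinetochores, had 69.8, 121 and 207 CPM in the lowest, median and highest tumor, against 51.8, 56.4 and 49.8 CPM in the normals. Its groups did not overlap, the normals lay close together, and its log2 change was 1.20 ± 0.28 (edgeR, adjusted p = 0.00966). In TPM, Bub3 per Bub1 was 2.96 to 5.24 in tumors, against 7.76 to 11.4 in normals, and Bub3 per Bub1b was 1.38 to 2.83, against 5.08 to 6.65. Bub3 per Mad2l1 was 1.29 to 2.08, against 2.91 to 3.81, and all 12 tumors lay below all 3 normals in each ratio. These 3 ratios share Bub3, whose change was the smallest of the 41, so they are not separate results. The share of other gene pairs with such a gap was not computed.

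The kinetochore and centromere genes changed by 1.92 to 2.67. Ndc80, the microtubule-binding subunit, was at 14.2, 31.3 and 44.0 CPM in the lowest, median and highest tumor, against 4.63, 8.90 and 5.35 CPM, a log2 change of 2.24 ± 0.37. Its partner Nuf2 changed by 2.54, and Spc24 and Spc25, the inner end of the complex, by 2.15 and 1.92. Cenpa, the histone H3 variant of centromeres, was at 46.2, 91.7 and 165 CPM, against 23.5, 24.1 and 8.56 CPM, a log2 change of 2.37 ± 0.43. Cenpe, a kinetochore motor, changed by 2.22 and Cenpf by 2.67. For Spc25 the lowest tumor, at 13.3 CPM, sat just above normal 2, at 12.9 CPM. In TPM, Ndc80 per Nuf2 was below all normals in 9 of 12 tumors and above them in 0. Spc24 per Spc25 was below them in 0 and above them in 1. The motors and microtubule proteins changed by 1.96 to 2.72. Kif11, the motor that pushes spindle poles apart, was at 50.6, 118 and 188 CPM, against 16.1, 33.6 and 18.3 CPM, a log2 change of 2.38 ± 0.40. Kif2c, a microtubule depolymerase at centromeres, changed by 2.72, Kif4 by 2.11 and Nusap1 by 1.96.

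Anaphase regulators changed by 1.86 to 2.78. Espl1 was at 24.97, 60.6 and 108 CPM in the lowest, median and highest tumor, against 8.96, 10.99 and 7.03 CPM in the normals, a log2 change of 2.78 ± 0.43 (edgeR, adjusted p = 0.00222). Pttg1, which holds separase inactive, was at 16.9, 34.4 and 67.8 CPM, against 9.40, 7.76 and 4.66 CPM, a log2 change of 2.41 ± 0.50. It was the only member whose highest normal was not normal 2. In TPM, Espl1 per Pttg1 was below all normals in 2 of 12 tumors and above them in 5. Cdc20 was at 44.98, 103 and 184 CPM, against 20.9, 26.1 and 9.48 CPM, a log2 change of 2.52 ± 0.50. Ube2c, a ubiquitin-conjugating enzyme of the anaphase-promoting complex, changed by 2.30, and Cdca3 by 1.86.

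The cytokinesis genes held 2 of the 3 smallest changes. Prc1, which bundles antiparallel microtubules, was at 45.2, 89.5 and 141 CPM, against 13.5, 25.6 and 15.4 CPM, a log2 change of 2.34 ± 0.33. Ect2, an exchange factor needed for furrowing at the cell equator, was at 37.9, 69.6 and 102 CPM, against 11.02, 31.7 and 11.6 CPM, a log2 change of 1.97 ± 0.36. Anln (anillin), a scaffold of the contractile ring, was at 39.1, 61.7 and 73.6 CPM, against 17.5, 33.5 and 16.4 CPM, a log2 change of 1.40 ± 0.26 (edgeR, adjusted p = 0.00394). Kif23, the centralspindlin motor, was at 48.3, 65.4 and 78.8 CPM, against 13.9, 26.3 and 13.1 CPM, a log2 change of 1.85 ± 0.24 (edgeR, adjusted p = 0.000982). Its tumors were closest together, with an SD of 0.21 on the log2 scale, against 0.81 for Ccnb1. Racgap1, its partner, changed by 2.11 and Kif20a by 2.38.

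**Figure D3:**
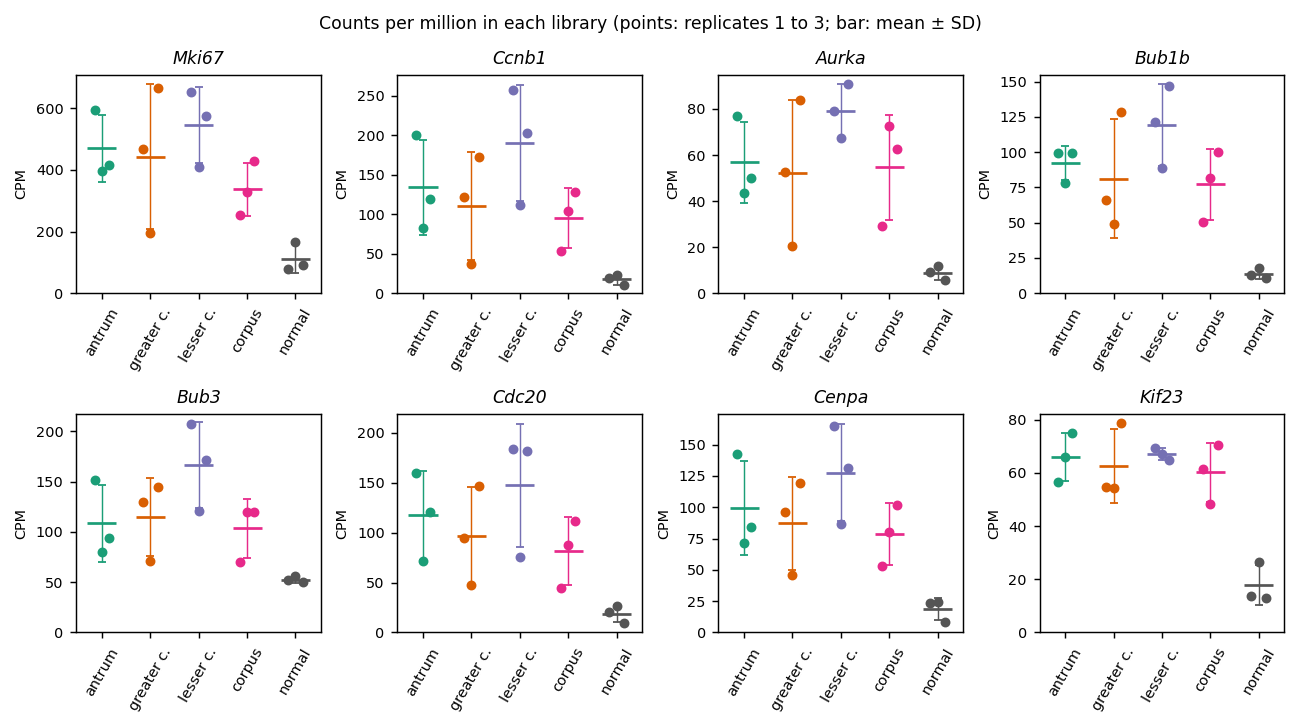
CPM of 8 members in each library (points), with group mean and SD, for the tumor sites and normal tissue, which is at the right of each panel. Every tumor lies above every normal. The Kif23 tumors lie between 48.3 and 78.8 CPM, while Ccnb1 tumors spread from 36.8 to 257 CPM.

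Each tumor site was compared with the same 3 normals, so these contrasts share their controls. In antrum tumors 40 of 41 members rose, against 9.59% of all tested genes, and 0 fell, against 5.08%. In greater curvature tumors 40 of 41 rose, against 6.5%, and 0 fell, against 2.76%. In lesser curvature tumors 41 of 41 rose, against 18.2%, and 0 fell, against 15.3%. In corpus tumors 31 of 41 rose, against 2.35%, and 0 fell, against 1.19%. Since all 12 tumors lay above the normals, the 3 tumors of each site did so for all 41 members too, which 21.9% of tested genes showed in antrum, 15.2% in greater curvature, 27.4% in lesser curvature and 17.6% in corpus. The median member log2 changes were 2.33, 2.17, 2.55 and 1.98 for antrum, greater curvature, lesser curvature and corpus. Bub3 missed the threshold in antrum (log2 change 1.04 ± 0.33, edgeR, adjusted p = 0.0519), greater curvature (1.13 ± 0.33, adjusted p = 0.0521) and corpus (0.97 ± 0.33, adjusted p = 0.107). In corpus Aurkb, Cdc20, Cdca3, Cdk1, Mki67, Nusap1, Pttg1, Racgap1 and Spc25 also missed it, with changes such as 2.12 ± 0.55 for Cdc20 (adjusted p = 0.0521) and 1.59 ± 0.43 for Mki67 (adjusted p = 0.0611).

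The number called at a site depended on single libraries, although all 41 had a positive change and an unadjusted p under 0.05 in every fit of a site against normal tissue. Without normal 3 the antrum count was 20 and without antrum 1 it was 25. For greater curvature it was 0 without normal 3, 1 without greater curvature 3, 7 without normal 1 and 7 without greater curvature 1. For corpus it was 0 without normal 1, normal 3 or corpus 3, 1 without corpus 2, 20 without normal 2, 14 without greater curvature 1, 16 without lesser curvature 1 or antrum 3, and 7 without lesser curvature 3. The counts over all genes fell too, to 0 for corpus without corpus 3 and to 1 for greater curvature without normal 3. The median member change in corpus stayed between 1.77 and 2.29 in these fits. Lesser curvature against normal tissue kept 41 in every fit.

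Mean levels by site followed one order for most members, but part of that order turned with single libraries. Ccnb1 averaged 134 ± 60.04 CPM in antrum, 111 ± 68.8 in greater curvature, 191 ± 73.9 in lesser curvature and 95.4 ± 38.0 in corpus tumors, against 17.6 ± 7.02 in normals (SD, n = 3 each). Aurka averaged 56.8 ± 17.7, 52.3 ± 31.5, 79.1 ± 11.6 and 54.7 ± 22.8 CPM in the same order of sites, against 8.90 ± 3.03 in normals, with corpus above greater curvature. For both genes the mean ± SD ranges of the 4 sites overlapped, and none reached that of the normals. Kif23 averaged 66.0 ± 9.21, 62.6 ± 14.03, 67.1 ± 2.33 and 60.2 ± 11.2 CPM, against 17.8 ± 7.44 in normals. The mean order was lesser curvature, antrum, greater curvature, corpus and normal for 33 of 41 members, and lesser curvature had the highest mean for 38. Against the other 3 sites, the median member change of greater curvature was -0.11, and 0.21 without greater curvature 2, and that of antrum was 0.12, and -0.12 without antrum 1. Lesser curvature, with the highest means, was also the tumor site with the most squamous marker RNA, whose part in the members' levels was not tested.

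The F test among the 4 sites called no member. It called 0 of 41 at an adjusted p under 0.05, against 0% of all genes. At an unadjusted p under 0.05 it had 0 of 41 members, against 947 of 16224 genes (5.84%), and the smallest member p was 0.173 (edgeR, Bub3, adjusted p = 0.891). DESeq2's likelihood ratio test and limma called 0 members too, while calling 164 and 3 genes over the whole table. Each site against the other 3 gave 0 members called by edgeR, with 0%, 0%, 0.00616% and 0% of all genes higher and 0% lower for antrum, greater curvature, lesser curvature and corpus. At an unadjusted p under 0.05, edgeR had 0, 0, 1 and 0 members, DESeq2 0, 0, 1 and 2, and limma 0, 0, 11 and 4. The shares of all genes at that threshold were 2.27%, 2.25%, 10.9% and 7.51% by edgeR, 3.41%, 3.31%, 15.6% and 11.4% by DESeq2, and 1.7%, 1.57%, 21.2% and 11.5% by limma. In these fits of all 15 libraries the members' counts were near or below these shares. Lesser curvature against the others had a median member change of 0.43, such as 0.76 ± 0.44 for Ccnb1 and 0.61 ± 0.26 for Bub3 (SE). With 1 library left out that median ran from 0.34 to 0.58. The members at an unadjusted p under 0.05 (edgeR) then ran from 0 to 13. The 13 came without greater curvature 3, where 2498 of 16628 genes passed. Corpus against the others had a median of -0.41, and was negative for all 41. The median was -0.18 without corpus 1 and -0.62 without corpus 3. With 1 library left out, 0 to 10 members had an unadjusted p under 0.05 (edgeR). The 10 came without greater curvature 2, where 2811 of 16596 genes passed. That no member was called does not show that the sites were alike.

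The same tumors were lowest for nearly every member. Greater curvature 2 and corpus 1 were the 2 lowest tumors for 40 of 41 members, with median log2 levels over the normal mean of 1.24 and 1.39, against 1.95 to 2.79 in the other 10. The exception was Kif23, lowest in corpus 2. These are the same libraries that held most chief cell marker RNA among tumors, and the part of that in their levels was not tested. Without both, all 41 were still called in all tumors. The members together took 0.159% to 0.672% of counts in tumors, against 0.0499% to 0.0905% in normals. Normal 2, the normal with squamous markers, was the highest normal for 40 of 41. Normal 3 was lowest for 29 and normal 1 for 12. Without normal 2 all 41 were called as well.

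**Figure D4:**
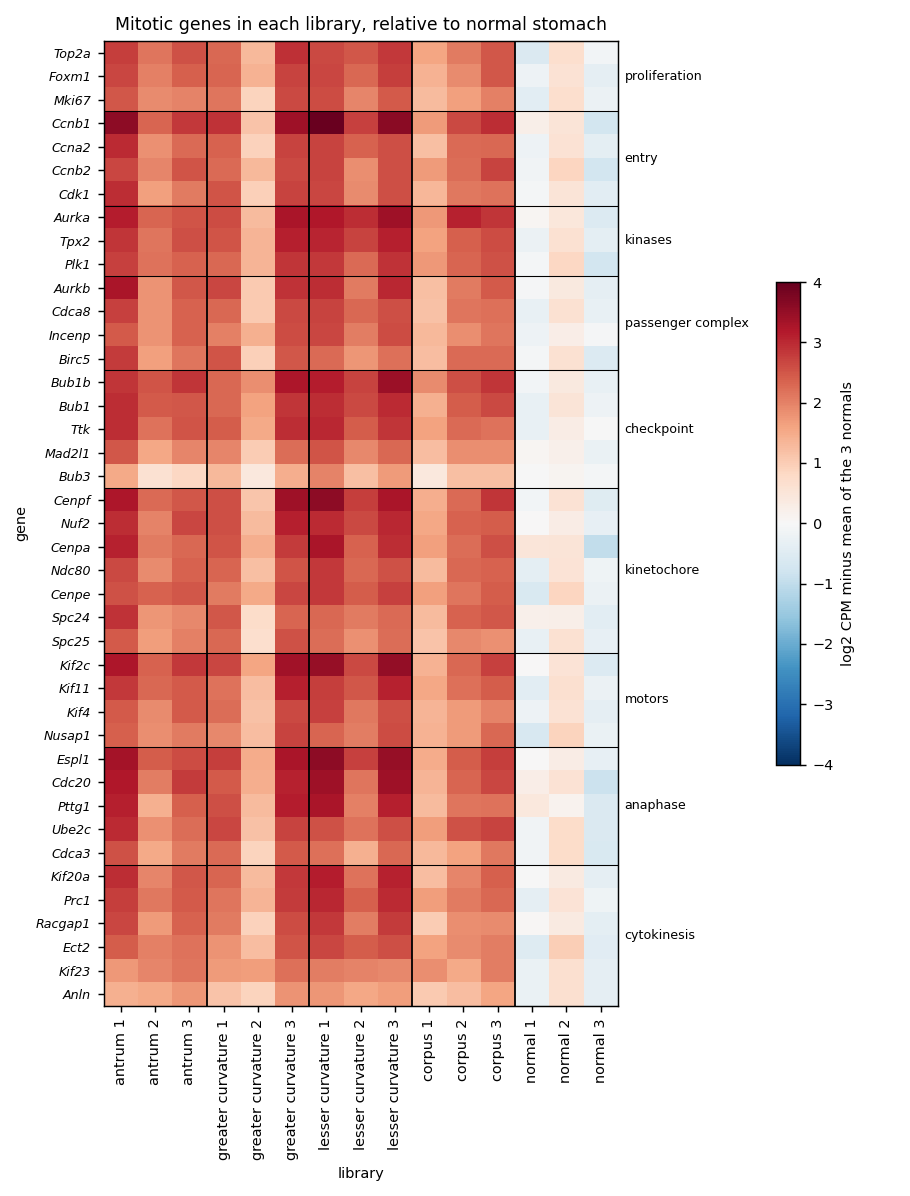
Log2 CPM of each gene in each of the 15 libraries, minus the mean of the 3 normals, with genes in rows by role and libraries in columns, tumor sites left of normal. All tumor columns are red, and greater curvature 2 and corpus 1 are the palest of them, at medians of 1.24 and 1.39.

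Levels of the members varied together across the 12 tumors. All 820 pairs of members had a positive Spearman correlation, with a median of 0.867 and a range of 0.014 to 0.993. These points share library size, scaling and the mix of cells, so the values are a description over 12 libraries. Ccnb1 followed the mean of the others most closely (0.986) and Kif23 least (0.469), followed by Spc24 (0.524) and Birc5 (0.601).

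Other genes of mitosis mostly rose as well. Of 149 genes in 10 further lists, all tested, 104 were higher, 5 lower and 40 not called in tumors, with a median log2 change of 1.39. Of all tested genes 16.2% were higher and 15.7% lower. Of 32 other kinetochore genes 28 rose, for example Sgo1, which protects centromeric cohesin (2.04 ± 0.26), and Ska3 (2.65 ± 0.36). Of 26 other spindle genes 23 rose, for example Hmmr (2.42 ± 0.37) and Spag5 (2.76 ± 0.45). Cohesin and condensin gave 15 of 19, with the condensin subunit Ncapd2 at 2.65 ± 0.45, and centriole genes 9 of 10, with Plk4, the kinase that starts centriole duplication, at 2.24 ± 0.27. Mitotic entry gave 9 of 13, with Mastl (Greatwall) at 1.64 ± 0.25 and Cdc25c at 2.40 ± 0.46. Other cytokinesis genes gave 6 of 9, with Shcbp1 at 2.04 ± 0.31, and Rhoa was lower (-0.59, edgeR, adjusted p = 0.0459).

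The anaphase-promoting complex had a lower median change, 0.41. Of 17 subunits and regulators 6 rose, namely the regulators Fbxo5 (1.83 ± 0.36) and Ube2s (1.69 ± 0.33) and subunits such as Cdc27 (0.58 ± 0.12), and 11 were not called. Of 6 other checkpoint genes 3 rose, with Trip13 at 2.27 ± 0.42, Haspin at 1.89 ± 0.34 and Zfp207, which escorts Bub3, at 0.36 ± 0.12, and Mad2l1bp, which helps end the checkpoint, was lower (-0.87, edgeR, adjusted p = 0.0283). Of 10 MuvB and DREAM genes 5 rose, such as Mybl2 (2.03 ± 0.38) and Lin9 (1.94 ± 0.42), and Rbl2, a pocket protein of the repressive form, was lower (-1.07, adjusted p = 0.00698, edgeR). Of 7 cell cycle brakes 0 rose and 2 were lower, the cyclin-dependent kinase inhibitor Cdkn1c (-2.17, edgeR, adjusted p = 0.00124) and Btg2 (-0.83, adjusted p = 0.00312). Ccng2 had a change of -0.56 (edgeR, adjusted p = 0.0773) and Gas1 of -1.07 (edgeR, adjusted p = 0.0899). In the TPM table, where the median of all genes shifted by 0.43 on the log2 scale, limma called 13 of the 17 genes of the anaphase-promoting complex higher, against 37.3% of all genes higher. It also called 1 brake higher, Cdkn1b, a cyclin-dependent kinase inhibitor named after its value was seen (0.84, limma adjusted p = 0.0115, against 0.35 and an adjusted p of 0.103 by edgeR). There, Cdkn1c was the only one of the 5 still called lower (-1.50, limma adjusted p = 0.00688), and Mad2l1bp, Rhoa, Rbl2 and Btg2 had changes of -0.32, -0.04, -0.38 and -0.28.

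**Figure D5:**
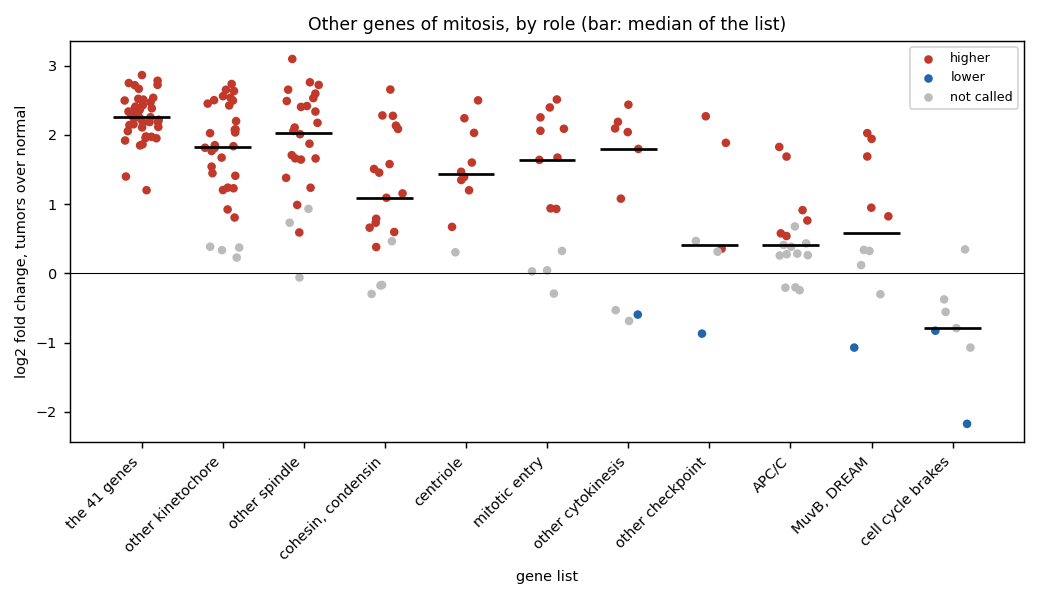
Log2 fold change, tumors over normal, for the 41 genes and 10 further lists. Red points were called higher, blue lower and grey not called by edgeR, and bars are list medians. The 41 have a median of 2.26, the anaphase-promoting complex (APC/C) 0.41 and the cell cycle brakes -0.79.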

How the data were processed

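Total RNA from stomach tissue was sequenced as paired 100 bp reads, per the labels' protocols, giving 15 libraries in 5 groups of 3. The submitters' processing notes name bcl2fastq 2.19, kallisto 0.44.0, sleuth, DESeq2 and GRCm38.p6, with no role or order. The authors deposited estimated counts per gene as whole numbers, and a second table of the authors whose columns all sum to one same fixed total, as TPM values do. Counts were tested with edgeR 4.0.16 (R 4.3.3): filterByExpr at a minimum count of 10, TMM scaling, quasi-likelihood fit over all 5 groups, Benjamini-Hochberg adjustment over 16224 tested genes, called at an adjusted p under 0.05. TPM was used for ratios between genes and for limma 3.58.1 on log2(TPM + 1), and DESeq2 1.42.0 was an alternative. Standard errors of edgeR changes were derived, as the size of the log2 change over the square root of the quasi-likelihood F statistic. Steps were tested on simulated data. In TPM the median gene shifted by 0.43 on the log2 scale. Replicate pairs differed beyond sampling noise.

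The 41 members, the further lists and the tests were chosen with earlier results of these data known. All 41 members are accounted for by role. Levels in the 3 normals and in the lowest, median and highest tumor are given for a fixed list of genes from every role. They are also given for the 3 largest and 3 smallest changes. Means by site are printed for Ccnb1, Aurka and Kif23 only. Further lists give up to 4 genes by smallest p and every one called lower. Promoter coordinates and sequences come from RefSeq (GRCm38.p6). Estimated counts can split reads between near-identical genes. The labels name no batch. One cell type marker list is not reported here.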

Additional observations from a re-analysis of the deposited data

How the results depend on the processing

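Alternatives to the edgeR fit were DESeq2 size factors, DESeq2, no filter on low counts, the replicate number as a block, limma on TPM, leaving out each library, leaving out greater curvature 2 and corpus 1 together, and fitting only the 2 groups compared. All 41 members were called higher in all tumors under each of the 21 alternatives run, with an adjusted p of 0.046 at most (Bub3 without normal 3), and the 12 tumors lay above the 3 normals for all 41 by TPM and by DESeq2 size factors too. Leaving out 1 library at a time gave 20 to 41 members called in antrum, 0 to 41 in greater curvature, 41 to 41 in lesser curvature and 0 to 40 in corpus, and 88 to 118 of the 149 further genes called in either direction. With only the 2 groups fitted, greater curvature gave 0 members and corpus 13, while antrum gave 36 and lesser curvature 41. Replicate numbers were not taken to pair the samples, since the labels name no shared source for them. The library names do run consecutively within each replicate number, in the same order of groups. The correlation of deviations was over 0.1 in 17 of 30 same-number pairs, not in all. Its median was 0.168, against -0.0654 for other pairs. For 10 of 15 libraries, the mean correlation with libraries of other groups was highest for their own replicate number. These values are a hint of pairing from the data. With the replicate block, 41 members were called in all tumors, 40 in antrum, 39 in greater curvature, 41 in lesser curvature and 16 in corpus. No member changed direction against normal tissue under any alternative. The cause of the changes in the number called was not tested. With 3 libraries a group, effects near the spread between samples cannot be resolved.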
